A study of Mus musculus with 3 samples.

Results

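Pdyn Martinotti-type neurons is the name used here for the cells of the developing mouse neocortex that carried mRNA of Pdyn, the gene of prodynorphin. The name is a label, and a Martinotti identity of these cells was not tested. A cell was a member when it passed the filters on cells (more than 700 detected genes and under 10% of its transcripts from mitochondrial genes), held at least 1 unique molecular identifier (UMI, one counted mRNA molecule) of Pdyn and held 0 UMIs of Nos1 and of Myh8. The rule took 427 of the 12324 cells deposited, or 427 of the 9433 cells that passed the filters. These Pdyn cells numbered 10 on embryonic day 16.5 (E16.5) and 27 on postnatal day 1 (P1), and 390 were found on P5. Pdyn, Nos1 and Myh8 therefore chose the cells, and their levels are given only as a description.

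The study asked when the diversity of cortical somatostatin (SST+) neurons arises, and it sequenced single cells at the 3 stages with the 10x Genomics 3' assay. All libraries came from Sst-Cre mice crossed to the RCE reporter line, in which Cre switches on eGFP for good, so a sorted cell had a history of Cre activity and need not hold Sst mRNA when it was collected. GFP-positive, DAPI-negative cells were sorted from dissociated neocortex pooled over animals, 6 of them for the E16.5 library and 3 for each postnatal one. Myelin was removed on a Percoll step at P1 and P5, and the P5 tissue was digested with trypsin besides. Each stage is 1 library, so stage, library and preparation cannot be told apart and no comparison below has a replicate or a p-value. The intervals are exact 95% intervals for the counting of molecules or cells and leave out variation between animals and libraries.

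Martinotti cells are SST+ interneurons whose axon climbs to layer 1 of the cortex, where it inhibits the apical dendrites of pyramidal neurons. Prodynorphin is cut into the dynorphins, opioid peptides that act mainly on the kappa receptor encoded by Oprk1. Nos1 marks the long-range projecting (LRP) SST+ neurons, and Myh8 marks a deep-layer kind of Martinotti cell. The rule leaves out cells in which either gene was detected, and cells of these kinds without a UMI of it can remain. In the mouse genome (GRCm38) Pdyn lies on the minus strand at chr2:129686565-129699844.

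The 3 libraries held between 13429055 and 25638779 UMIs, and the filters kept 3952 of the 4478 E16.5 cells, 2501 of the 4440 P1 cells and 2980 of the 3406 P5 cells. A kept cell had a median of 5577 UMIs in the first, 3293 in the second and 3935.5 in the last. Cell barcodes were shared by 3 cells of the E16.5 and P1 libraries, 1 of E16.5 and P5 and 6 of P1 and P5, and 1 of these barcodes belonged to a Pdyn cell of P5. No doublet caller was run.

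At P5, Pdyn cells were 13.1% of kept cells (11.9 to 14.4, exact binomial). At P1 they were 1.08% (0.713 to 1.57), and at E16.5 they were 0.253% (0.121 to 0.465). A deeper cell is more likely to show 1 molecule of a gene. Pdyn cells had a median of 8493 UMIs at E16.5 and 8798 at P1, above the 5577 and 3293 of all kept cells there, and 5602.5 at P5. After each cell was thinned to 2000 UMIs, with shallower cells left out, 2 of 3615 E16.5 cells (0.0553%), 8 of 1828 P1 cells (0.438%) and 230 of 2443 P5 cells (9.41%, 8.29 to 10.6) held Pdyn. The order of the 3 libraries was the same at equal depth, and the P5 interval overlapped neither of the others.

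Most Pdyn cells held few Pdyn molecules. At E16.5, 9 of the 10 cells held 1 UMI and the other held 2. At P1, 19 cells held 1 UMI, 7 held 2 and 1 held 3. At P5, 159 cells (40.8%) held 1 UMI, 73 held 2 and 84 held 5 or more, with a median of 2 and a highest value of 24. Cells with 1 UMI are those just inside the threshold and cells with 0 are just outside. The summed level of Pdyn in its own cells was 104 CPM (UMIs of a gene divided by all UMIs of the group and multiplied by 1e+06) at E16.5, and it was 170 CPM at P1 and 569 CPM at P5.

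**Figure D1:**
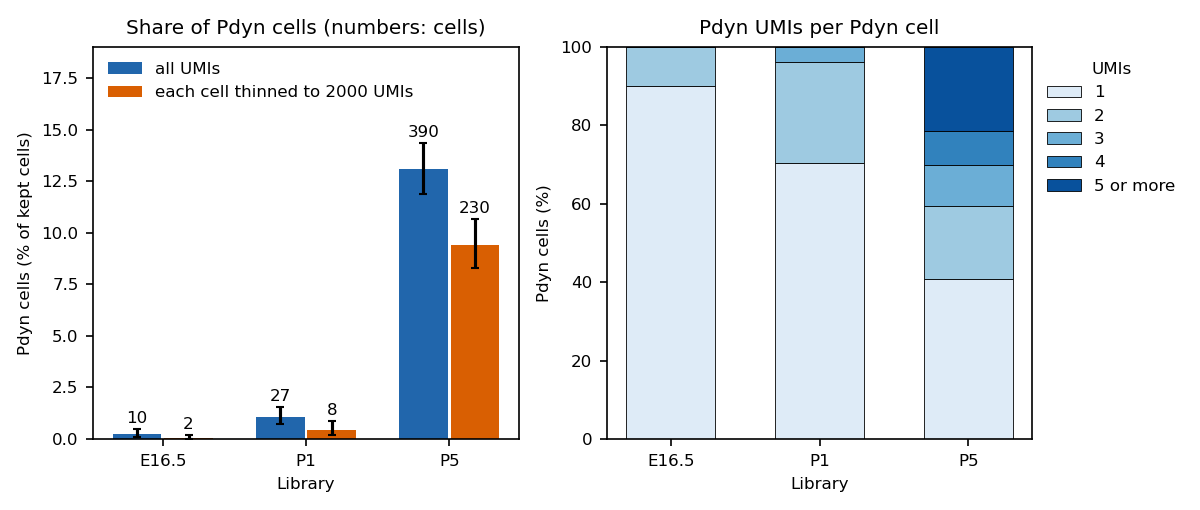
Left, Pdyn cells as a percent of each library's kept cells, for all kept cells and for cells thinned to 2000 UMIs, with exact 95% binomial intervals. Right, the Pdyn cells of each library split by the number of Pdyn UMIs they held, in percent. The P5 library stands far above the others at either depth, and cells with several Pdyn molecules make up a larger share there.

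Free RNA in a droplet suspension can give a molecule of a gene to a cell that does not make it. Excitatory-type cells that had slipped through the sort held no Pdyn UMI in any library: 0 of 39 E16.5 cells, which allows a share of up to 7.69%, 0 of 34 P1 cells, up to 8.82%, and 0 of 18 P5 cells, up to 16.7% (their median depths were 11905, 5641.5 and 4464 UMIs). These cells were too few to bound the background below the shares of Pdyn cells. Cells with 2 or more UMIs of Tac1, a set chosen after its values were seen, held Pdyn in 2 of 96 cases at P5 (2.08%, 0.253 to 7.32, at a median of 4772.5 UMIs), below the interval of the Pdyn share there. At E16.5 the same kind of cell held Pdyn in 1 of 110 cases (0.909%), not below the 0.253% of all kept cells. The 10 E16.5 cells could thus not be set apart from background by this measure. Tac1, like Pdyn, is a gene of striatal neurons, so a Tac1 cell may make Pdyn itself. These cells are therefore not a sure measure of free RNA. At P1 it was 0 of 51, which allows up to 5.88%.

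Each library's Pdyn cells were compared with Sst reference cells, the kept cells with 0 UMIs of Nos1 and Pdyn and at least 5 of Sst. There were 1913 of these in the E16.5 library, 737 in the P1 library and 715 in the P5 library. Unlike Pdyn cells, reference cells could hold Myh8, and 629 of the P5 ones had 0 UMIs of it. Against those alone 428 genes were called at P5. UMIs were summed over the cells of each group and scaled to CPM, and a gene was compared when at least 10 UMIs were expected in the smaller group. A log2 ratio is that of CPM + 1, with the interval of the ratio of the counts themselves, and a gene is called higher or lower when it passed 2-fold. At P5 the Pdyn cells and the reference cells had like depths, with medians of 5602.5 and 5339 UMIs. At P1 the reference cells were shallower, at 4517, and at E16.5 they stood at 6451. The median share of mitochondrial UMIs was 4.74% in Pdyn cells and 3.78% in reference cells at P5. With mitochondrial UMIs held under 5%, 331 genes were called at P5 where 428 are called below, and of 70 called values of named genes that could be recomputed 2 fell under 2-fold (Chrna2 and Kcnj6).

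The genes that go with the name were only in part set apart. Klhl14, a kelch-like protein gene, was at 49.2 CPM (40.3 to 59.4) in the P5 Pdyn cells and at 26.3 CPM (21.4 to 31.9) in the reference cells, a log2 ratio of 0.88 (0.50 to 1.31), which is under 2-fold. It had a UMI in 87 of 390 Pdyn cells (22.3%) and in 83 of 715 reference cells (11.6%), and in 9.97% and 6.28% of cells at 2000 UMIs. Ndnf, which encodes a secreted neurotrophic factor, was at 19.8 CPM (14.3 to 26.6) in Pdyn cells and 26.8 (21.9 to 32.5) in reference cells, a log2 ratio of -0.42 (-0.99 to 0.09). It was found in 8.21% of the former and 8.53% of the latter. At P1, Klhl14 had 11 UMIs in Pdyn cells (log2 0.67, -0.35 to 1.57) and Ndnf had 2, and at E16.5 neither had any. Both genes had too few UMIs to be compared at E16.5 and P1. At P5 the interval of Ndnf held 0, and Klhl14 was higher in Pdyn cells by less than 2-fold.

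The cells carried the marks of SST+ interneurons. At P5, 331 of 390 Pdyn cells (84.9%) had a UMI of Sst, and 171 (43.8%, 38.9 to 48.9) had at least 5, against 35.2% (33.2 to 37.4) of the other kept cells with 0 Nos1 and 0 Pdyn. These other cells were shallower, with medians of 5550, 3163 and 3910 UMIs from E16.5 to P5, and a limit of 5 UMIs is met more easily by a deeper cell. The share with at least 5 was 7 of 10 at E16.5 (70.0%) and 20 of 27 at P1 (74.1%). Because the reference cells were chosen for Sst, its level is set beside all kept cells with 0 Nos1 and 0 Pdyn instead. There Sst stood at 3231 CPM in Pdyn cells and 2879 in the others at E16.5, at 2015 and 1578 at P1, and at 1169 and 1503 at P5 (log2 -0.36, -0.42 to -0.30). Pdyn cells thus had somewhat more Sst than the other cells at E16.5 and P1 and somewhat less at P5. In these sums, less Sst per cell and fewer cells with Sst cannot be told apart.

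Of 14 genes of the GABAergic and medial ganglionic eminence (MGE) lineage compared at P5, 1 was higher and 0 lower. Over all genes 1.48% were higher and 2.58% lower. The higher gene was Maf, which is described below. Lhx6, a transcription factor gene of interneurons from the MGE, was at 425 CPM against 488 (log2 -0.20). Sox6 and Satb1, which act below it, had log2 ratios of 0.34 and 0.18, and Slc32a1, the vesicular GABA transporter gene, of -0.11. Gad2, which encodes a GABA-making enzyme, had the lowest ratio of the list, -0.77 (350 against 599 CPM). Markers of other cell types were low. Summed over 8 excitatory markers, the Pdyn cells held 0 CPM at E16.5 and P1 and 4.59 at P5 (in reference cells 7.76, 6.77 and 1.30 CPM), with Slc17a6, Fezf2, Neurod1 and Emx1 at 0 in every library. A count of 0 in the Pdyn cells allows up to 28.3 CPM at E16.5 and 14.2 CPM at P1. The zeros there thus cannot show a level below that of the reference cells, and at P5 the sum was the higher one in Pdyn cells. Vip, Prox1, Htr3a and Sncg of 7 CGE interneuron markers were at 0 in Pdyn cells in all 3 libraries, and the list summed to 34.5 CPM at P5 (reference cells 74.2). Vip and Sncg were at 0 in the reference cells of all 3 as well. For the Cajal-Retzius list, Trp73, Lhx1 and Lhx5 were at 0 in Pdyn cells throughout, so its 940 CPM at P5 (502 in reference cells) came almost wholly from Reln, which is described below. Trp73 and Lhx1 were at 0 in reference cells throughout too.

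At E16.5, 1 of the 10 Pdyn cells carried a striatal profile: it had at least 5 UMIs over the list of striatal projection neurons and 0 of Lhx6. It was also the only E16.5 cell with 2 Pdyn UMIs. The striatal list summed to 501 CPM in the E16.5 Pdyn cells and to 110 in the reference cells there, with Drd2, Adora2a and Penk at 0 in the Pdyn cells. At P5 the sums were 123 and 173 CPM, with 1 such Pdyn cell of 390, and at P1 they were 99.3 and 144 CPM, with 0 of 27. Pdyn is itself a gene of striatal neurons, and every E16.5 value below rests on 10 cells that include this one.

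At P5, 156 of 10562 genes were 2-fold or more higher in Pdyn cells than in reference cells (1.48%) and 272 were lower (2.58%). The median log2 ratio over all genes compared was -0.02. With reference cells of any Sst level 369 of 10610 genes were called at P5, 105 of them higher. With at least 5 Sst UMIs in Pdyn cells it was 239 of 8895, with 69 higher, so the P5 counts depend on the choice for Sst. At P1, 36 of 4284 genes were higher (0.84%) and 50 lower (1.17%). At E16.5, 33 of 2080 were higher (1.59%) and 43 lower (2.07%). The 3 comparisons differ in how many genes could be compared, since the number of cells sets it.

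**Figure D2:**
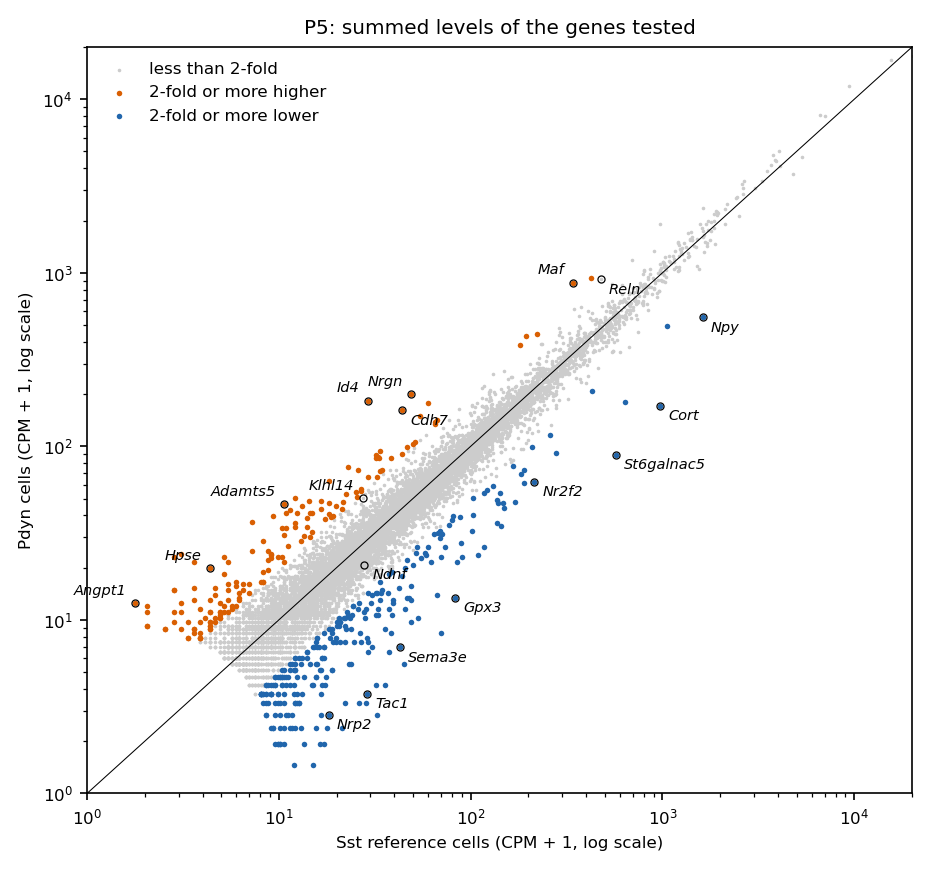
Each point is 1 of the 10562 genes compared at P5, with CPM + 1 in the Sst reference cells on the x axis and in the Pdyn cells on the y axis, both on log scales. Orange points are 2-fold or more higher in Pdyn cells and blue points 2-fold or more lower, and the named genes are those described in the text.

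Id4, whose protein blocks the DNA binding of basic helix-loop-helix factors, had the highest ratios, at P1 as at P5, of the genes called higher at both stages. At P5 it stood at 182 CPM against 28.1 (log2 2.65, 2.38 to 3.02) and was found in 200 of 390 Pdyn cells (51.3%) and 74 of 715 reference cells (10.3%). At 2000 UMIs per cell these shares were 29.6% and 4.19%. At P1, Id4 was at 94.6 CPM against 17.2 (log2 2.40, 1.67 to 3.19). At E16.5 it had 6 UMIs in Pdyn cells, too few to be compared, and most of them lay in the cell with the striatal profile. Id4 lies on the plus strand at chr13:48261228-48266026 (GRCm38).

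Of 4282 genes compared at both P1 and P5, 6 were 2-fold higher at both stages (0.14%) and 10 were lower at both (0.234%), and 0 were higher at one and lower at the other. Among those higher were Id4, Cdh7, Pcdh11x, Tmtc4 and Sla. Cdh7, a classical cadherin of the cell surface, had log2 ratios of 1.05 at P1 (80.4 against 38.4 CPM) and 1.89 at P5 (160 against 42.7 CPM), and was found in 39.5% of P5 Pdyn cells against 13.1% of reference cells. Pcdh11x, a protocadherin, stood at 1.13 and 1.41, and Tmtc4, which encodes an enzyme that adds mannose to cadherins, at 1.38 and 1.58. Sla, an adaptor protein gene, was at 1.02 and 1.09. At E16.5 these genes had between 2 and 9 UMIs each in Pdyn cells and could not be compared.

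The 10 genes lower at both stages were Cort, St6galnac5, Pcdh17, Lrp1b, Igfbp5, Nectin1, Pigk, Cit, Nebl and the unnamed gene Gm17750. Cort, which encodes the SST-related peptide cortistatin, was at 61.5 CPM against 257 at P1 (log2 -2.04) and at 170 against 971 at P5 (log2 -2.51, -2.67 to -2.36). It was found in 31.5% of P5 Pdyn cells and 59.6% of reference cells. St6galnac5, a sialyltransferase gene, was at 142 CPM against 380 at P1 (log2 -1.42) and at 88.2 against 571 at P5 (log2 -2.68), with 18.2% against 65.6% of P5 cells. Pcdh17 encodes a protocadherin. It was the only one of the 2042 genes compared in all 3 libraries that was called the same way in each (1 lower, 0.049%, and 0 higher, 0%), with log2 ratios of -1.09, -1.86 and -1.83 from E16.5 to P5. Its P5 level was 178 CPM against 636, in 40.0% of Pdyn cells and 75.9% of reference cells. At E16.5 its value rested on 10 UMIs in Pdyn cells, 60.0% of them from 1 cell.

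Genes that came near to a common difference were Nr2f1, Nr2f2, Grin3a and Cplx2. Nr2f2, which encodes the transcription factor COUP-TFII, had log2 ratios of -1.78, -0.87 and -1.78 from E16.5 to P5, and at P5 stood at 61.6 CPM against 213. Its P1 value rested on 21 UMIs in 4 Pdyn cells, 61.9% of them from 1 cell, and its E16.5 value on 5 UMIs, 80.0% from 1 cell. Nr2f1, the gene of COUP-TFI, had -1.01, -1.86 and -0.99. Calb1, the calbindin gene, had -1.38 (80.0% of its 15 UMIs from 1 cell), -0.98 and -1.17, but its P5 ratio passed under 2-fold when reference cells were taken without regard to Sst. On the higher side, Grin3a, an NMDA receptor subunit gene, had 0.99 (61.5% of its 39 UMIs from 1 cell), 0.85 and 0.54, and Cplx2, which encodes the release regulator complexin 2, had 0.73, 0.59 and 0.98. Lower ratios in all 3 libraries, each under 2-fold, were seen for Pcdh7, a protocadherin gene (-0.72, -0.91 and -0.75), Olfm1, an olfactomedin gene (-0.73, -0.68 and -0.85), and Btg1, an antiproliferative gene (-0.84, -0.73 and -0.73). Higher ratios in all 3 were seen for Limch1, an actin regulator gene (0.79, 0.73 and 0.61), Robo2, a Slit receptor gene (0.93, 0.42 and 0.50), Erc2, an active zone gene (0.57, 0.60 and 0.44), and Mtus2 (1.79, 0.66 and 0.70). Pantr1, a long noncoding RNA, was at 0.60, 0.54 and 1.14.

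Some genes set 1 library apart. At E16.5, Gnal, which encodes a G protein of striatal and olfactory neurons, was at 189 CPM in Pdyn cells against 50.5 in reference cells (log2 1.88, 20 UMIs), and its ratio was -0.39 at both later stages. Ncald, a calcium sensor gene, went the same way, with 1.58 at E16.5 and -0.37 and -0.38 later. Without the cell that has the striatal profile Ncald was at 1.66, and Gnal had too few expected UMIs to be compared. Cort was at 123 CPM against 92.4 at E16.5 (log2 0.41, -0.50 to 1.19), with 84.6% of its 13 UMIs from 1 cell, where it did not differ beyond its interval, and was lower later as given above. At P1 Tgs1, which encodes an enzyme that modifies RNA caps, was at 123 CPM against 59.1 (log2 1.04), with -0.14 at E16.5, and at P5 it was at 58.4 against 58.6 CPM. At P5 Ackr3, an atypical chemokine receptor gene that scavenges Cxcl12, was at 10.1 CPM against 3.38 (log2 1.34, under 2-fold with reference cells of any Sst level), and was at -0.63 and -0.64 before. Igf1r, the receptor gene for insulin-like growth factor 1, had -1.67, -0.39 and 0.94 over the 3 libraries, from 5 UMIs in Pdyn cells at E16.5. None of these changes between libraries was tested.

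At P5 alone, many more genes could be compared. The genes named in this paragraph were chosen after their values were seen, as leaders of the comparison. Higher in Pdyn cells were Gpc5, a glypican gene (log2 2.96, 23.0 against 2.08 CPM), Angpt1, the gene of angiopoietin 1 (2.81), Loxl2, which encodes a collagen cross-linking enzyme (2.59), Prdm1, a transcription factor gene (2.39), and Enpp2, the gene of autotaxin (2.35). Grm4, a metabotropic glutamate receptor gene, was at 49.6 CPM against 11.2 (log2 2.05). Adamts5, a protease gene of the extracellular matrix, was at 45.5 against 9.63 (log2 2.13). With reference cells of any Sst level the log2 ratios were 2.12 (Gpc5), 1.73 (Angpt1), 2.82 (Loxl2), 1.97 (Prdm1), 2.08 (Enpp2), 1.95 (Grm4) and 1.25 (Adamts5). Lower in Pdyn cells were B3glct, a glycosyltransferase gene (log2 -3.52), and Hspb3, a small heat-shock protein gene (-3.37).

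Of the 7 opioid genes other than Pdyn compared at P5, 0 were higher and 2 were lower, with a median log2 ratio of 0.23, where 1.48% of all genes were higher and 2.58% lower. Penk, the gene of the enkephalin precursor, was at 6.43 CPM against 28.1 (log2 -1.97), and 85.7% of its 14 UMIs in Pdyn cells came from a single cell. Pnoc, which encodes pronociceptin, was at 52.8 CPM against 116 (log2 -1.12, or -0.71 with reference cells of any Sst level). Oprk1, the receptor gene for dynorphin, had 16 UMIs in Pdyn cells and a log2 ratio of 0.85 (-0.12 to 2.16), so a difference was not detectable at this depth. The other receptor genes Oprm1, Oprl1 and Oprd1 had ratios of 0.56, 0.29 and -0.83, each with an interval that holds 0.

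Of 13 genes for peptide processing and secretory granules, 0 were higher at P5 and 2 were lower (1.48% and 2.58% of all genes). Cpe, which encodes carboxypeptidase E, had a log2 ratio of 0.03 (328 against 321 CPM). Pcsk2, the gene of a convertase that cuts prodynorphin, had -0.10 (-0.42 to 0.22), and Pcsk1, the gene of the other neuroendocrine convertase, 0.62 (-0.35 to 1.81). The lower genes were Vgf, which encodes a granule protein (25.3 against 117 CPM, log2 -2.17), and Cadps2, a factor for granule release (log2 -2.55, from 4 UMIs in Pdyn cells).

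Among the other neuropeptides, 7 of 8 genes compared were lower in P5 Pdyn cells (2.58% of all genes) and 0 higher (1.48% of all genes). Npy, the neuropeptide Y gene, was at 554 CPM against 1616 (log2 -1.54, -1.64 to -1.46). Its share of cells was alike in both groups, 63.8% (58.9 to 68.6) of Pdyn cells and 61.4% (57.7 to 65.0) of reference cells, so for Npy the level differed where the share with a UMI did not. The remaining genes were low to begin with: Tac1, the substance P precursor gene, was at 2.76 CPM against 27.8 (log2 -2.94), Cck at 8.73 against 47.6 (-2.32), Tac2 at 1.38 against 11.2 (-2.36), Nppc at 1.38 against 14.6 (-2.71) and Cartpt at 0.919 against 12.5 (-2.81). As a mean of per-cell CPM, Cck was at -0.77, which is under 2-fold. The Tac1 level of the reference cells lay in 21 of the 715.

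Several lists of subtype markers came from the study's own tables, chosen there on these same cells, so their counts are no independent evidence of a direction. Of the 22 Martinotti markers, 21 were compared at P5, with a median log2 ratio of 0.00. The list as a whole thus did not set the Pdyn cells apart from the reference cells. Against these reference cells, which could hold Myh8, 1 marker was higher at P5 (1.48% of all genes) and 3 were lower (2.58% of all genes). The list was not counted against reference cells with 0 Myh8. The higher one was Hpse, which encodes heparanase (18.8 against 3.38 CPM, log2 2.18, 1.55 to 3.50), with a UMI in 35 Pdyn cells (8.97%) and 12 reference cells (1.68%). It had 0 UMIs in Pdyn cells at E16.5 and P1. The lower ones were Nr2f2, Gpx3, a glutathione peroxidase gene (12.4 against 81.5 CPM, log2 -2.62), and Chrna2, a nicotinic receptor gene of deep-layer Martinotti cells (3.22 against 10.9 CPM, log2 -1.50, from 7 UMIs in Pdyn cells, and just under 2-fold with mitochondrial UMIs under 5% or a pseudocount of 5). Over all alternatives, reference cells with 0 Myh8 among them, the P5 ratio of Nr2f2 ranged from -1.88 to -1.23. Reln, which encodes the secreted glycoprotein reelin, was just under 2-fold at P5, at 919 CPM against 475 (log2 0.95, 0.86 to 1.04), in 93.6% of Pdyn cells and 64.8% of reference cells. At P1 it was 2-fold higher (908 against 413 CPM, log2 1.13), and at E16.5 its ratio was 0.52 (-0.14 to 1.11). In the study's second Martinotti list, 2 of 17 genes were higher at P5 and 0 lower, with a median of 0.32. Sema6a, a transmembrane semaphorin gene, was highest of that list at P1 (506 against 198 CPM, log2 1.35) and stood at 260 against 130 CPM at P5, just short of 2-fold.

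Of the 18 non-Martinotti markers 15 were compared at P5, with 1 higher, 6 lower and a median log2 ratio of -0.56. Among the lower ones were Erbb4, a neuregulin receptor gene (33.5 against 143 CPM, log2 -2.06), Lrp1b, Lrrc4c, Tac1 and Tac2, and higher was Thsd7a (1.07). Erbb4 was also lower at E16.5 (-1.22) and was at -0.55 at P1. The second non-Martinotti list had 6 of 22 lower and 0 higher. Of the LRP markers 11 were compared at P5, with 1 higher, 3 lower and a median of -0.67. Of the marker genes of adult SST+ subtypes 20 were compared there, with 2 higher, 8 lower and a median of -0.78. The higher ones were Hpse and Ptgdr, a prostaglandin receptor gene (11.5 against 2.08 CPM, log2 2.02). Over all genes compared at P5, 1.48% were higher and 2.58% lower and the median was -0.02, and whether any list differs from other genes was not tested.

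Of 27 axon guidance genes compared at P5, 11 were lower and 1 higher, with a median log2 ratio of -0.81, where 2.58% of all genes were lower. Sema3e, a secreted semaphorin gene, was at 5.97 CPM against 41.6 (log2 -2.61), and the semaphorin receptor genes Nrp2 and Nrp1 stood at -2.68 and -1.76, from 4 UMIs each in Pdyn cells. The netrin receptor genes Dcc, Unc5c and Unc5d had -1.41, -1.03 and -1.69, and the repellent genes Slit2 and Slit3 had -1.02 and -1.50. The gene called higher was Epha4, an ephrin receptor gene, at 50.1 CPM against 24.5 (log2 1.00, 0.62 to 1.45), at the 2-fold limit. The guidance genes Sema6a and Robo2 were also higher in Pdyn cells, by less than 2-fold (0.997 and 0.50). At P1, 14 of the list could be compared, with 1 higher (0.84% of all genes) and 2 lower (1.17% of all genes). At E16.5 it was 7, with 0 called.

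Adhesion genes were split. Of 20 cadherins and protocadherins at P5, 3 were higher (Cdh7, Pcdh11x and Pcdh19, the last at a log2 ratio of 1.04), 1 was lower (Pcdh17) and the median was 0.03. Of 22 synaptic organizers 0 were higher and 6 lower, among them Tenm3 (-1.64) and Lrrtm4 (-1.73). Over all genes compared at P5, 1.48% were higher and 2.58% lower.

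Among 23 transcription factors of interneuron subtypes at P5, 2 were higher (1.48% of all genes) and 4 lower (2.58% of all genes). Maf was at 874 CPM against 339 (log2 1.36, 1.27 to 1.47), in 89.5% of Pdyn cells against 54.0% of reference cells. This difference was smaller with other choices of cells, at 0.89 for Pdyn cells with at least 5 Sst UMIs and 0.81 against reference cells of any Sst level, and at P1 the ratio was -0.02. Tox, a chromatin factor gene, was at 44.1 CPM against 12.2 (log2 1.77). Bcl6, a repressor gene (log2 -2.99), Sp9, a zinc finger gene of the ganglionic eminences (-2.93), Nr2f2 and Pou3f2 (-1.69) were lower. Zbtb20, a zinc finger gene, went from lower at E16.5 (28.3 against 201 CPM, log2 -2.78, from 3 UMIs in Pdyn cells) and P1 (199 against 483, log2 -1.28) to a log2 ratio of 0.53 at P5 (168 against 116). The P5 sign turned with other choices of cells, to -0.34 for Pdyn cells with at least 2 Pdyn UMIs, -0.48 against reference cells of any Sst level and -0.11 at 2000 UMIs per cell, and 281 of its 366 UMIs in P5 Pdyn cells lay in 1 of the clusters described at the end, the one with the least Pdyn. The change between libraries was not tested.

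Of 12 GABA-A receptor subunits at P5, 4 were lower (among them Gabrb1 at -1.56, Gabra5 at -1.18 and Gabra4 at -1.04, or -0.99 for Pdyn cells with at least 5 Sst UMIs and -0.78 without the top 5% of cells by UMIs) and 1 was higher, Gabrd, the delta subunit gene of extrasynaptic receptors, at 17.5 CPM against 4.16 (log2 1.84). With reference cells of any Sst level Gabrd was at 0.76. None of 17 ionotropic glutamate receptor subunits was called in either direction (0 higher, 0 lower). Of 20 potassium channel genes 2 were lower and 0 higher. For the lists of this paragraph, the shares over all genes compared at P5 were 1.48% higher and 2.58% lower. Nrgn, which encodes the calmodulin-binding protein neurogranin, was at 199 CPM against 47.9 (log2 2.04), and at 0.39 with reference cells of any Sst level, so its call depends on which reference is used. Of 8 immediate early genes, which rise with activity and with dissociation, 2 were lower (Fos at -1.27, Jun at -1.41). Of 12 genes that the study used to mark stressed cells 0 were called in any library, with a median of -0.07 at P5.

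Within the P5 cells, the number of Pdyn molecules could be set beside the other genes. The cells are those chosen for Pdyn and deeper cells hold more of it, so this is a description. Groups with 1, 2, 3 to 4 and 5 or more Pdyn UMIs had 159, 73, 74 and 84 cells and median depths of 5150, 5294, 5711 and 6718 UMIs. Id4 was at 28.1 CPM in reference cells and at 145, 248, 214 and 167 CPM in these groups. Reln was at 475 CPM in reference cells and went from 827 at 1 Pdyn UMI to 989 at 3 to 4. Cdh7 was at 114, 176, 205 and 185 CPM, against 42.7 in reference cells. In the other direction, Npy was at 1616 CPM in reference cells and at 711, 620, 459 and 347, and Calb2, the calretinin gene, stood at 47.5, 25.8, 7.40 and 5.34 CPM, against 25.2 in reference cells. Cort was already at 179 CPM in cells with 1 Pdyn UMI, against 971 in reference cells, and at 139 in those with 5 or more. Cells with a single Pdyn UMI lay on the side of the other Pdyn cells for Id4, Reln, Cdh7, Cort and Npy, though not for Calb2. These 159 cells are part of the P5 Pdyn cells in which the genes were seen to differ. The likeness is therefore in part built in and is no independent support for their membership. The reference cells were chosen for Sst and these groups were not: Sst was at 3048 CPM in the former and 1323 at 1 Pdyn UMI. For all P5 Pdyn cells against reference cells of any Sst level, log2 ratios were 1.55 (Id4), 1.32 (Reln), 1.36 (Cdh7) and -1.92 (Cort). Npy was not recomputed, and the effect of the Sst limit on the groups by Pdyn UMIs was not tested.

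**Figure D3:**
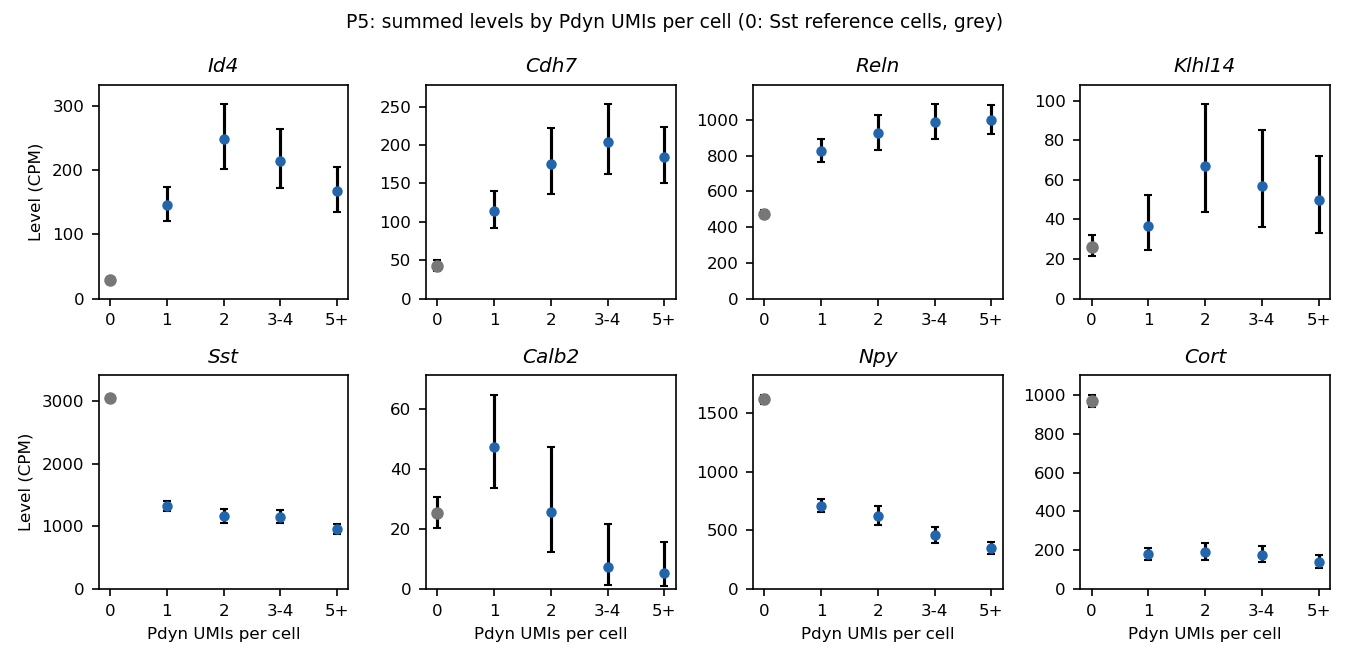
CPM of 8 genes at P5 in Sst reference cells (0 Pdyn UMIs) and in Pdyn cells with 1, 2, 3 to 4 and 5 or more Pdyn UMIs, with exact 95% Poisson intervals. Id4, Cdh7 and Reln are above the reference cells in every group of Pdyn cells, and Npy and Cort below.

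The share of cells with Pdyn differed widely with the other genes a cell carried. Of the 2433 kept P5 cells with 0 Nos1, 404 had a Pdyn UMI (16.6%). Among those with a UMI of Hpse it was 35 of 61 (57.4%, 44.1 to 70.0), with Ptgdr 23 of 37 (62.2%), with Id4 37.3%, with Klhl14 34.5% (28.7 to 40.7), with Reln 29.2% and with Ndnf 24.3% (17.3 to 32.4). It was 8.17% with Gpx3, 9.68% with Chrna2, 2.00% with Tac1 and 2.14% with Necab1. Cells with a UMI of a rare gene tend to be deeper, and at 2000 UMIs the shares were 11.4% over all, 43.5% with Hpse, 27.0% with Id4, 19.5% with Klhl14 and 6.25% with Ndnf. The share with Hpse was thus high at either depth, and that with Ndnf was above the share over all cells at full depth only.

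At P5, the Pdyn cells could also be set beside 2 other sets of kept cells with 0 Nos1 and 0 Pdyn, 141 cells with a UMI of Myh8 and 46 with a UMI of Cbln4 and 0 of Myh8. Against Myh8 cells, 196 of 8337 genes were higher (2.35%) and 222 lower (2.66%). Higher in Pdyn cells were Epha4 (50.1 against 1.19 CPM, log2 4.55), Zbtb20 (3.17), Id4 (3.11), Cdh7 (160 against 17.8 CPM), Tox (2.97), Maf (1.81) and Klhl14 (1.61). Lower were Id2 (-3.29), Nr2f2 (61.6 against 509 CPM, log2 -3.03), Kit (-2.85), Gpx3 (-2.50), Cort (-2.38) and Pcdh17 (-2.33). Against Cbln4 cells, 97 of 4162 genes were higher (2.33%) and 53 lower (1.27%). Cort (170 against 40.8 CPM, log2 2.03), Reln (1.27) and Cdh7 (1.05) were higher in Pdyn cells, and Npy (554 against 2733 CPM, log2 -2.30), Zbtb20 (-1.93) and Nr2f1 (-1.17) were lower. Cort was therefore lower in Pdyn cells than in Myh8 cells and higher than in Cbln4 cells, and Zbtb20 the reverse. Epha4 (0.01) and Pcdh17 (0.30) were at like levels in Pdyn and Cbln4 cells.

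Across stages, 369 of 2112 genes were 2-fold higher in the P5 than in the E16.5 Pdyn cells (17.5%) and 257 were lower (12.2%), and in reference cells 2096 of 11532 were higher (18.2%) and 1560 lower (13.5%). The study's list of genes that go up with development, which it chose on these libraries, had 104 of 133 genes higher at P5 in Pdyn cells and 0 lower, with a median log2 ratio of 1.53 (also with the 4 genes that had 0 UMIs at E16.5 set to a limit of 3 UMIs). In reference cells 150 of 159 were higher, with a median of 2.09. These medians are over unlike sets of genes, and a difference between them was not tested. Between Pdyn and reference cells of E16.5 the list had 7 of 71 genes higher, 0 lower and a median of 0.38. Over all genes 1.59% were higher and 2.07% lower at E16.5. Between Pdyn and reference cells of P5, the same list had 2 of 159 higher, 3 lower and a median of -0.02. Over all genes 1.48% were higher and 2.58% lower there.

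The 390 Pdyn cells of P5 were also grouped by their own expression (Leiden clustering at a resolution of 0.5), as a description after the data were seen. They fell into 4 clusters, and at resolutions of 0.3 and 1 into 3 and 8, so the number depends on the setting. The genes below led the clusters and chose them. Cluster 1 (147 cells) had most of the Cort and St6galnac5 of the Pdyn cells, at 340 and 181 CPM, with Eya4 at 124 CPM and Ndnf at 35.1 against 10.0 to 10.9 CPM elsewhere. Cluster 2 (75 cells) was led by Pdia3, a chaperone gene of the endoplasmic reticulum (263 CPM), and Ubb, a ubiquitin gene (1093 CPM). The study's stressed cell markers summed to 4055 CPM there and to between 2103 and 2697 in the others, and Hpse was at 50.0 CPM. Cluster 3 (103 cells) was led by Zbtb20 (512 CPM), Thsd7a (346 CPM) and Olfm3 (177 CPM), and had the lowest Pdyn level, 371 CPM, and the lowest Sst level, 581 CPM. Cluster 4 (65 cells) held 36 of the Myh4 UMIs (90.0 CPM), and had Nr2f2 at 230 CPM and Npy at 127 CPM. In the other clusters Nr2f2 was between 10.9 and 36.3 CPM. Chrna2, a gene of deep-layer Martinotti cells, had 7 UMIs in cluster 4 (17.5 CPM) and 0 in the others. Whether cluster 4 holds cells of the kind that Myh8 marks was not tested. Reln was between 765 and 1248 CPM and Id4 between 103 and 275 CPM in the 4 clusters.

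**Figure D4:**
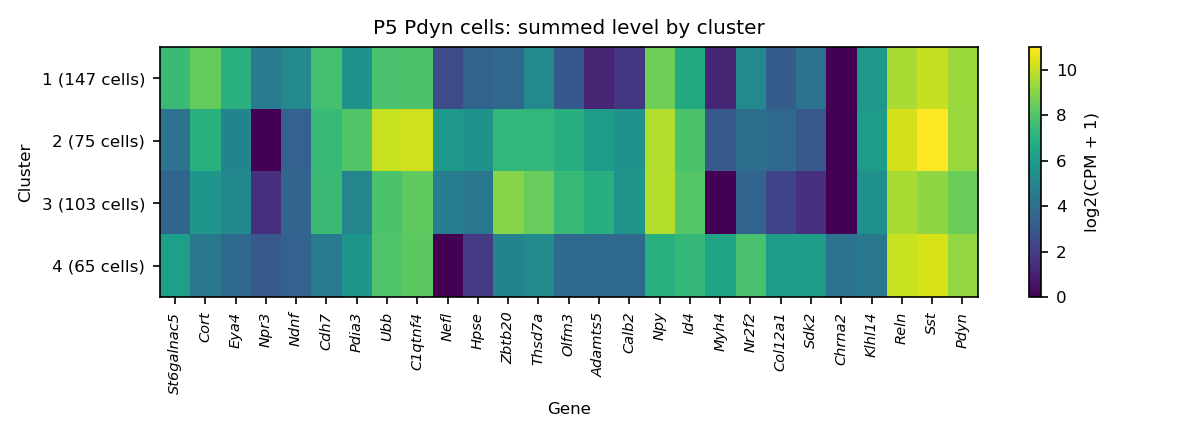
Levels of the leading and marker genes, as log2(CPM + 1), in the 4 clusters of the 390 Pdyn cells of P5. Each cluster's leading genes stand out in its own row by choice, and Pdyn is present in all 4 by the rule that chose the cells. Reln and Id4 are present in all 4 as well.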

How the data were processed

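Each of the 3 libraries was deposited by the authors as a matrix of raw UMI counts per gene and cell barcode (unit counts, not normalized), with 31053 genes, made with Cell Ranger per the file headers (version 3.0.2 for P1, and version 3.1.0 for the other stages). The submitters' notes name GRCm38, STAR and Seurat. Cells with over 700 genes and under 10% mitochondrial UMIs were kept. Counts were summed over the cells of a group, since cells are not replicates, and compared as log2(CPM + 1) where 10 UMIs were expected in the smaller group. A gene was called at 2-fold. With 1 library per stage there was no test. Intervals (95%) are Clopper-Pearson for shares, exact Poisson for levels and conditional binomial for ratios, and cover counting error only. Limits for a count of 0 use 3 counts. For equal depth, cells were thinned to 2000 UMIs.

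The members, gene lists and markers were chosen with earlier results of these data known. Genes were named by rule: the marker and selecting genes, up to 4 per list by mean absolute log2 ratio, and the leaders over all libraries or of 1 library. The leaders at P5, other members of a list named with its counts, the genes called at both P1 and P5, and the genes beside Myh8 or Cbln4 cells were added after values were seen. Clusters of the P5 Pdyn cells used scanpy 1.11.5 (Leiden). Coordinates are from the GENCODE annotation of GRCm38. Computations used scipy 1.17.1, pandas 2.3.3 and numpy 2.4.6 under Python 3.11.15 and were tested on simulated data. Alternatives changed the cell filters, the reference cells, depth, scaling, pseudocount and gene filter. Doublets were handled only by leaving out the top 5% of cells by UMIs as an alternative. Some genes counted in the lists are not reported here by name.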

Additional observations from a re-analysis of the deposited data

Results flagged for a closer look

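Tox3, a transcription factor gene, differed between Pdyn cells and Sst reference cells in opposite directions at E16.5 and P5. Its log2 ratio was -1.11 at E16.5 (7 UMIs in Pdyn cells, 66.1 against 144 CPM, interval -2.44 to -0.08) and 1.08 at P5 (213 UMIs, 97.9 against 45.8 CPM, 0.80 to 1.39). At P1 it was 0.84 (0.26 to 1.39). The difference between the libraries was not tested.

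Pdyn UMIs were also found in cells that the rule leaves out, above the 0 of the excitatory-type cells. Of Nos1 cells, 2.76% held one at P1 (12 of 434) and 9.87% at P5 (54 of 547), or 7.73% at P5 at equal depth. Of Myh8 cells, 9.03% held one at P5 (14 of 155). Of the cells that failed the filters, 2.78% held one at P1 (54 of 1939) and 15.96% at P5 (68 of 426), at median depths of 2143 and 1034.5 UMIs. The excitatory-type cells were 34 at P1 and 18 at P5, which allows shares of up to 8.82% and 16.7%, so only the size of these values, and no difference from that background, is given.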

How the results depend on the processing

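No paired analysis was possible because each stage is 1 library. Of the genes called among those named, 113 values of Pdyn over reference cells, direction held in all but 3 of the cases an alternative could recompute: Calb1 at E16.5 was 0.10 with mitochondrial UMIs under 5%, Tgfb2 at P5 was -0.22 with reference cells of any Sst level, and Trhde at P1 was 0.065 as a mean of per-cell CPM. Counts of called genes moved far more. In what follows "all 3" is the number of genes called alike in every library (1 as reported) and "stage" the number called between P5 and E16.5 Pdyn cells (626 as reported). The counts as reported were 76 at E16.5, 86 at P1, 428 at P5, 418 against Myh8 cells and 150 against Cbln4 cells. With at least 2 Pdyn UMIs the shares of Pdyn cells were 0.0253%, 0.320% and 7.75%, with 16 genes at E16.5, 57 at P1 and 67 for stage. With at least 5 Sst UMIs in Pdyn cells the P5 share was 5.74%, with 239 genes at P5 and 4 for all 3. With mitochondrial UMIs under 5% the P1 share was 0.116% and the P5 share 11.2%, with 8 genes at E16.5, 5 at P1, 138 for stage and 0 for all 3. That limit left 4 Pdyn cells at E16.5 and 1 at P1. Without the top 5% of cells by UMIs there were 23 genes at E16.5, 369 for stage and 0 for all 3. Thinned to 2000 UMIs the shares were 0.0553%, 0.438% and 9.41%, with 3 genes at E16.5, 6 at P1, 134 against Myh8 cells, 54 against Cbln4 cells, 11 for stage and 0 for all 3. Reference cells of any Sst level gave 133 genes at P1, 369 at P5 and 3 for all 3, and reference cells with 0 Myh8 gave 2 for all 3. Means of per-cell CPM gave 137 at E16.5, 265 at P1, 237 against Cbln4 cells and 2 for all 3. Centring on the median gave 2 for all 3, as did a pseudocount of 0.1, and a pseudocount of 5 gave 242 at P5. With 20 expected UMIs there were 9, 20 and 263 genes from E16.5 to P5, 222 against Myh8 cells, 59 against Cbln4 cells, 267 for stage and 0 for all 3. With any gene of 1 UMI or more there were 5122, 3868 and 1110 genes from E16.5 to P5, 2602 against Myh8 cells, 3859 against Cbln4 cells, 7000 for stage and 152 for all 3. Fewer cells or genes enter the stricter settings by construction, and any further cause was not tested. The alternatives for stage, Myh8 cells and Cbln4 cells, and the exclusion of cells with a striatal profile, were chosen after seeing the data. At P5, 11 of the 85 values with a counterpart fell under 2-fold with reference cells of any Sst level (Trpm3, Pnoc, Maf, Gabrd, Fos, Drd2, Nrgn, Nkain3, Calb1, Ackr3 and Tgfb2), 8 of 55 with at least 5 Sst UMIs in Pdyn cells (Trpm3, Maf, Gabra4, Kcnj6, Kcnip2, Drd2, Pantr1 and Sfrp2) and 9 of 87 with a pseudocount of 5 (Chrna2, Trpm3, Gabra4, Kcnip2, Nrp1, Slit3, Kit, Drd2 and Ackr3). As means of per-cell CPM, 2 of 87 P5 values fell under 2-fold (Trpm3 and Cck). Without the cells with a striatal profile 69 genes were called at E16.5, and 109 of 110 called values stayed past 2-fold. The log2 ratio of Id4 at P5 ranged from 1.55 to 3.49 over all alternatives, that of Cdh7 from 1.26 to 2.15, that of Klhl14 from 0.52 to 1.08 and that of Ndnf from -0.44 to 0.08. At E16.5 and P1 depth limits the comparison: 10 and 27 cells, with 105862 and 211414 UMIs in all, leave most genes uncompared.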
